A study of Mus musculus with 33 samples.

Results

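The 10 genes described here encode nuclear receptors, which are transcription factors that bind DNA directly and, in many cases, change activity when a small lipophilic ligand occupies them. They were chosen by name from the 37991 gene identifiers of the count files: the retinoic acid receptors Rara, Rarb and Rarg, the retinoid X receptors Rxra, Rxrb and Rxrg, the COUP transcription factors Nr2f1 and Nr2f2, the germ cell nuclear factor gene Nr6a1, and Nr5a2, which encodes LRH-1. The rule itself used names and no measured value, but it listed Nr2f1, Nr2f2, Nr6a1 and Nr5a2 as receptors responsive to retinoic acid. Earlier results of these data were also known when the genes were chosen. The rows of all 10 genes were found in all 33 libraries.

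The RNA sequenced came from E14TG2a cells, a line of mouse embryonic stem cells, grown as mESCs, as embryoid bodies grown for 8 days (EBs), and as EBs that were given 5 µM retinoic acid from day 4 on (EBs + RA). Control lines came from mESCs that had received the Cas9 plasmid without a guide and the puromycin selection plasmid, and the mutant lines from mESCs that had received the same plasmids with guides deleting part of Neil1, Neil2 or Apex1. Control clones #1, #4 and #7, Neil1-mutant clones #7, #9 and #11 and Neil2-mutant clones #1, #11 and #14 gave 1 library each at every stage. The Apex1-mutant line was 1 clone, #46, whose 2 libraries per stage were technical duplicates, so no p-value for Apex1 covers the spread between mutant clones.

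RARs bind retinoic acid and act as heterodimers with RXRs on pairs of hexamer repeats, where they hold corepressors without ligand and recruit coactivators with it. Rarb is a textbook target of this mechanism, since its own promoter carries such an element. The orphan receptors were named before a natural ligand was known. COUP-TFs are used in hindbrain, neural crest and mesenchymal cells, Nr6a1 represses Pou5f1 while mESCs differentiate, and Nr5a2 supports Pou5f1 transcription in mESCs and epiblast cells.

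A promoter of Rarb is shown because it holds a pair of hexamer repeats. The 250 bases before a RefSeq start of Rarb lay at chr14:16575477-16575726 of GRCm38.p6, on the minus strand. They matched chromosome 14 of NCBIM37, the build of the count files, at a single place, from 17407991 to 17408240. Other chromosomes and the other strand were not searched. The annotation of that build gives Rarb 2 transcript starts, and the gene reaches 17651381, upstream of this window. Counts over the whole gene do not show which start was used, so a link of the element to the RA response was not tested. Capitals mark the DR5 element, a pair of direct repeats of the receptor hexamer.

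Rarb promoter: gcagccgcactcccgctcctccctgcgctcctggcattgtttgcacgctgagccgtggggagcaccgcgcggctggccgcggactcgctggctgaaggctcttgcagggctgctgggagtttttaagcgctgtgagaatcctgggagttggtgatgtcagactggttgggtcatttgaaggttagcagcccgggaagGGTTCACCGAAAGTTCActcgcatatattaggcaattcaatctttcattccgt

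The element covered 17 bases, from 53 to 37 bases before the start (NCBIM37 17408027 to 17408043). Of 32851 RefSeq promoter windows, each from 250 bases before to 50 bases after a start, 32 (0.0974%) held a DR5 on either strand, and of the 20 windows of the 10 receptor genes, 1 did. The DR1 and DR2 elements stood in 0.222% and 0.268% of all windows and in 0 of the 20. The single extended site TCAAGGTCA, the kind bound by Nr5a2 and Nr6a1, was in 0.423% of all windows and in 0 of the 20. The hexamer AGGTCA, which is also part of TCAAGGTCA, was in 16.3% of all windows and in 6 of the 20, 1 each of Rara, Rarg, Rxra, Rxrg, Nr6a1 and Nr5a2. These letter matches describe the windows and are not measurements of binding.

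Each library held between 21523742 and 48350904 counts assigned to genes. The deletions were not read from the counts, since counts over a whole gene include the exons left in place, and 61.67% of the exon bases of Apex1 overlap Tmem55b on the opposite strand. Neil1 read 2.18 to 4.34 CPM, counts scaled to library size, in Neil1-mutant EBs + RA and 6.05 to 8.12 CPM in controls, but reached 31.5 CPM in 1 Neil1-mutant mESC library. For Neil2, the Neil2-mutant and control ranges overlapped in mESCs and EBs, and in EBs + RA the mutants were higher (4.86 to 5.85 against 3.40 to 4.5 CPM). Apex1 was higher in the libraries labelled Apex1 knockout, at 56.5 to 86.2 CPM against 7.76 to 17.8 CPM in controls over the 3 stages, so these counts give no check of that label. In the mESC library of Neil1 clone #11, 345 of 511 genes of chromosome X that were counted in every other mESC library read 0, and 0 of 13620 autosomal genes did. None of the 10 receptor genes lies on chromosome X.

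A gene is called changed below at an edgeR false discovery rate (FDR) under 0.1, adjusted over all genes tested, and an absolute log2 fold change over 0.5. Levels are CPM scaled by TMM (trimmed mean of M values, edgeR's library scaling) over all 33 libraries. Fold changes are followed by their standard error (SE). Levels of different genes are compared per kilobase (kb) of annotated exon. With bulk RNA, fewer cells of a type and less RNA per cell cannot be told apart.

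**Figure D1:**
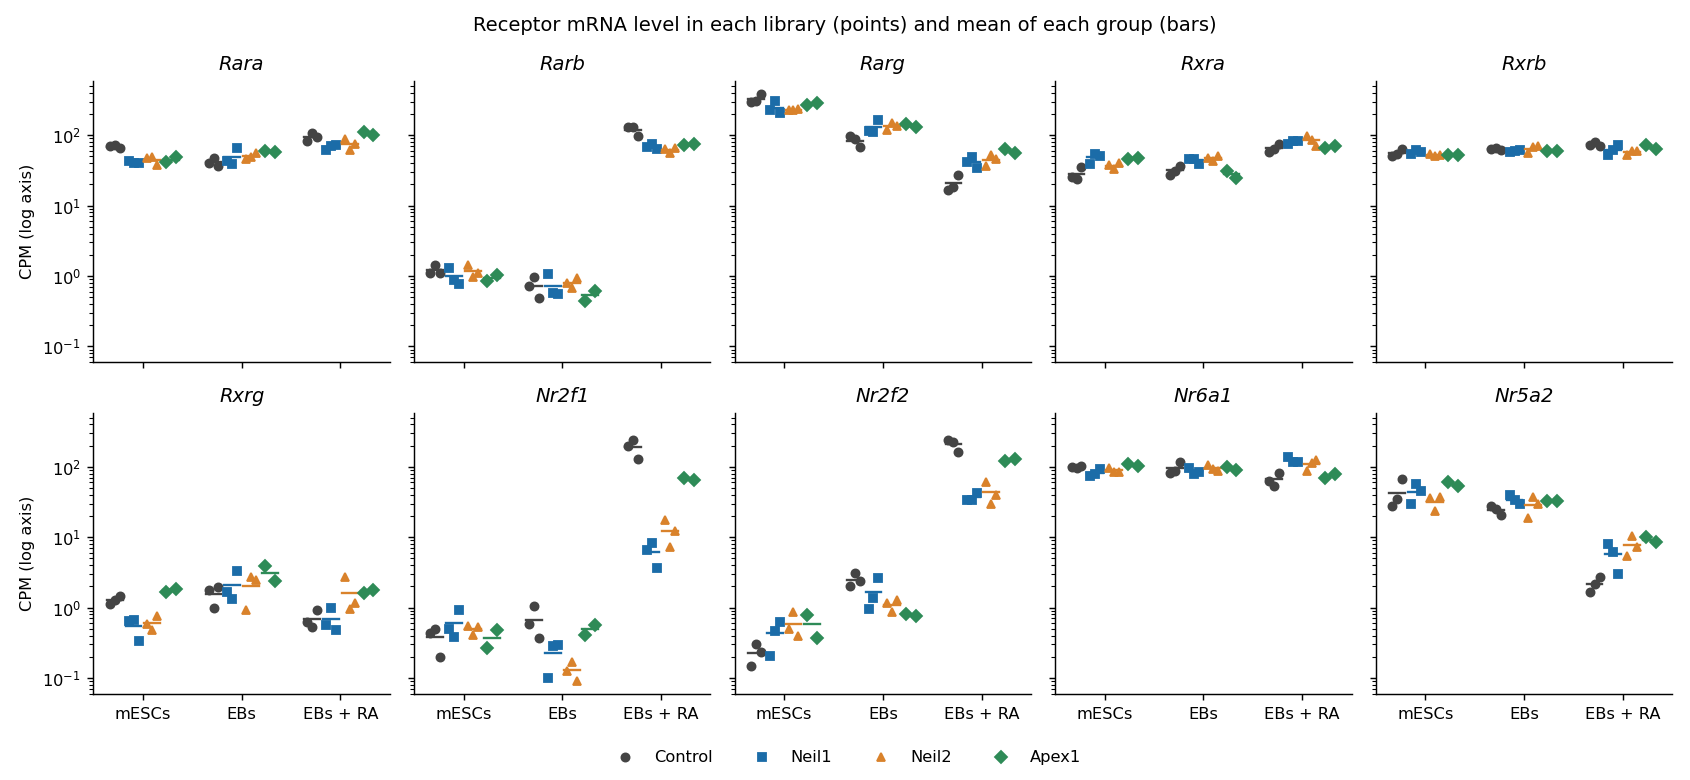
Level of each receptor mRNA in CPM, on a log axis shared by all panels, at the 3 stages, with 1 point per library, colours and shapes for the genotypes, and a short bar at each group mean. Rarb, Nr2f1 and Nr2f2 reach at most 3.08 CPM in any mESC or EB library and 3.68 CPM or more in every EB + RA library, Rxrb stays between 49.96 and 81.1 CPM, and Nr5a2 falls from 18.7 CPM or more to 10.5 CPM or less with RA.

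In control mESCs, Rarg was the most abundant of the 10 mRNAs at 80.3 ± 12 CPM per kb (SD, n = 3). Rxrb (15.2 ± 2.0), Rara (15.0 ± 0.78), Nr6a1 (13.2 ± 0.35) and Nr5a2 (11.2 ± 5.5 CPM per kb) followed. Their order lay within their spread, except that Rara stood above Nr6a1. Rxra stood at 5.20 ± 1.2 CPM per kb. Rxrg, Rarb, Nr2f1 and Nr2f2 were all below 1 CPM per kb, and Nr2f1 and Nr2f2 rested on 4 to 13 counts per control library. In control EBs + RA that order was turned over. Nr2f2 (43.2 ± 9.1), Nr2f1 (39.7 ± 12) and Rarb (36.1 ± 5.8 CPM per kb) led, with overlapping ranges. Per kb of the longest transcript, Nr2f1 (58.8) came before Nr2f2 (49.8) and Rarb (39.2). Rara (20.8 ± 2.8) and Rxrb (20.1 ± 1.6) came next, then Rxra (12.0 ± 1.5), Nr6a1 (8.84 ± 2.0) and Rarg (5.03 ± 1.4 CPM per kb), while Nr5a2 and Rxrg were below 1 CPM per kb.

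Control EBs were compared with control mESCs to see what 8 days of aggregation did without RA. Of the 10 genes, 4 were called, 1 higher and 3 lower, against 38.7% of 15799 genes called (18.5% higher and 20.2% lower). Rarg, the receptor that dominates mESCs, read 301, 303 and 387 CPM in mESCs of control clones #1, #4 and #7 and 96.0, 87.7 and 66.9 CPM in EBs, with no overlap, and fell by 2.00 on the log2 scale (SE 0.17, edgeR FDR = 4e-05). Rara fell from 64.8 to 71.8 CPM to 36.5 to 47.9 CPM, a log2 change of −0.74 (SE 0.12, edgeR FDR = 0.0017). Nr2f2 was the gene that rose, from 0.146, 0.303 and 0.236 CPM to 2.02, 3.08 and 2.36 CPM (log2 fold change 3.40, SE 0.38, edgeR FDR = 0.00019). Its level in EBs was still low, at 64 to 96 counts per library.

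Nr5a2 read 27.6, 34.4 and 67.2 CPM in control mESCs and 27.7, 25.0 and 20.9 CPM in EBs. The mESC library of clone #7 stood apart, and the ranges overlapped. The log2 change of −0.83 (SE 0.30, edgeR FDR = 0.05) was called, but with the clone as a block it was −0.73 (edgeR FDR = 0.13) and not called. It was also not called without mESC clone #7 (−0.34), EB clone #4 (−0.83) or EB clone #7 (−0.72). Rarb, the RXR genes, Nr2f1 and Nr6a1 were not called, with log2 changes from −0.77 for Rarb to 0.79 for Nr2f1.

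The effect of RA in controls was taken from EBs + RA against EBs of the same clones, whose cultures were split when RA was added. The values given are from the fit without this pairing, and with the clone as a block the same genes were called. Of the 10 genes, 9 were called, 5 higher and 4 lower, where 44.1% of 15919 genes were called (23.3% higher and 20.7% lower). Part of the list was chosen as RA-responsive, so this number is a description and not a test of the list. Their median log2 change was 0.63, and that of all genes tested was 0.01.

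Rarb, the receptor with the DR5 printed above, read 0.715, 0.973 and 0.479 CPM (13 to 34 counts) in control EBs and 131, 129 and 97.2 CPM in EBs + RA. Every EB + RA library lay far above every EB library, and the log2 fold change was 7.35 (163-fold, SE 0.23, edgeR FDR = 3.1e-07). Rara, which is transcribed in most tissues, rose from 40.8, 47.9 and 36.5 CPM to 82.9, 108 and 94.0 CPM (2.27-fold, log2 1.18, SE 0.14, edgeR FDR = 0.00017). Rarg moved the other way, from 96.0, 87.7 and 66.9 CPM to 16.5, 18.5 and 27 CPM, with no overlap (log2 −2.02, SE 0.22, edgeR FDR = 0.00013).

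The makeup of RAR mRNA and its sum both differed between the stages. Per kb, Rarg made up 83.8 ± 2.5% of the summed RAR level in control mESCs, 68.4 ± 3.1% in EBs and 8.25 ± 2.9% in EBs + RA (SD, n = 3). Rarb made up 0.390 ± 0.090%, 0.728 ± 0.17% and 58.2 ± 6.0%, and Rara 15.9 ± 2.5%, 30.9 ± 3.0% and 33.6 ± 3.7%. The sums were 95.7 ± 11, 29.7 ± 4.6 and 62.0 ± 5.4 CPM per kb.

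Among the RXR genes, which supply the common heterodimer partner, Rxra rose from 27.1, 31.5 and 36.2 CPM to 57.9, 64.2 and 74.7 CPM with RA (2.07-fold, log2 1.05, SE 0.14, edgeR FDR = 0.00039). Rxrb, the evenly expressed member of the family, read 62.8, 66.1 and 61.9 CPM in EBs and 72.0, 81.1 and 70.3 CPM in EBs + RA. Its log2 change of 0.22 (SE 0.10, edgeR FDR = 0.089) was under the fold limit and not called. Rxrg, best known from muscle and brain, was low throughout, at 1.77, 0.973 and 1.95 CPM and then 0.628, 0.528 and 0.927 CPM, and fell by 1.18 on the log2 scale (SE 0.37, edgeR FDR = 0.025).

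Both COUP-TF genes rose with RA from low levels. Nr2f1 read 0.588, 1.05 and 0.368 CPM (10 to 28 counts) in control EBs and 195, 242 and 128 CPM in EBs + RA (log2 8.15, 284-fold, SE 0.37, edgeR FDR = 3e-06). Of its exon bases, 2.17% overlap A830082K12Rik and 0.42% overlap Gm8327, both on the opposite strand, and the strand setting of the counting was not stated, so reads there cannot be told apart. Nr2f2 rose from 2.02, 3.08 and 2.36 CPM to 244, 226 and 160 CPM (log2 6.41, 85.1-fold, SE 0.23, edgeR FDR = 5.7e-07). In both genes the EB + RA library of clone #7 was the lowest of the 3, as it was for Rarb.

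Nr6a1 and Nr5a2, which act on Pou5f1 in opposite directions, were both called lower with RA, by different amounts. Nr5a2 went from 27.7, 25.0 and 20.9 CPM to 1.68, 2.19 and 2.68 CPM (log2 −3.50, SE 0.22, edgeR FDR = 6.5e-06). For Nr6a1, clones #1, #4 and #7 read 80.8, 87.0 and 119 CPM in EBs and 62.7, 53.4 and 82.9 CPM in EBs + RA. Each clone fell, while the ranges overlapped (log2 −0.53, SE 0.19, edgeR FDR = 0.05). That call held in all 7 alternatives that kept every library, the clone as a block among them. In fits without the block it was lost without EB clone #7 (−0.35), EB + RA clone #1 (−0.50) or EB + RA clone #4 (−0.41). Pou5f1 itself fell by 4.61 on the log2 scale (SE 0.18, edgeR FDR = 8.5e-07).

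**Figure D2:**
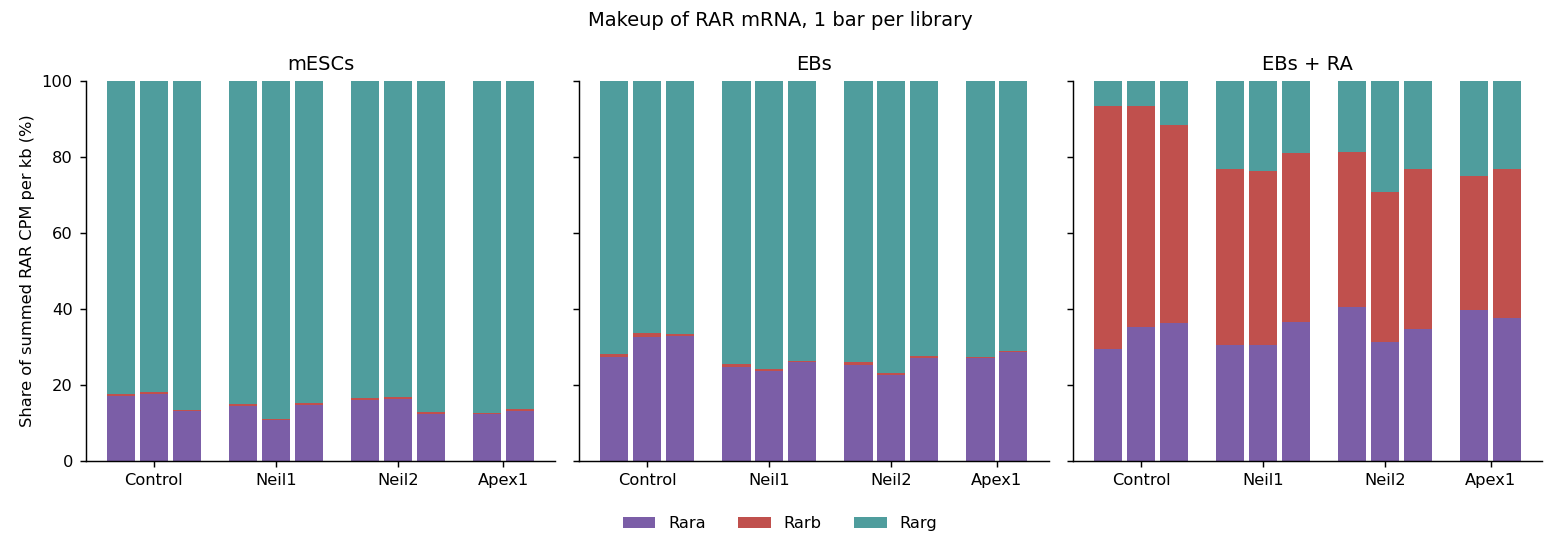
Share of Rara, Rarb and Rarg in the summed RAR level per kb of exon (%), with 1 bar per library and 1 panel per stage. Rarg fills most of every mESC bar, and in EBs + RA its part is 8.25 ± 2.9% in controls and 18.7% or more in every mutant library.

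The mutants were then compared with the controls of the same stage. In mESCs, 1 of the 9 receptor genes tested was called in Neil1 mutants, 1 of 9 in Neil2 mutants and 2 of 10 in the Apex1 line, where 1.82%, 1.83% and 16.9% of all genes were called. Nr2f2 did not pass the filter on low counts in the Neil1 and Neil2 fits. Rara was called in each of the 3 mutants. Rara read 69.1, 71.8 and 64.8 CPM in control mESCs, 42.9, 40.6 and 40.0 CPM in Neil1 clones, 47.8, 49.6 and 37.6 CPM in Neil2 clones and 41.7 and 48.6 CPM in the Apex1 duplicates. No mutant library reached a control library. The log2 differences were −0.75 (SE 0.12, edgeR FDR = 0.069) for Neil1, −0.63 (SE 0.13, edgeR FDR = 0.083) for Neil2 and −0.63 (SE 0.12, edgeR FDR = 0.034) for Apex1.

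These 3 calls were close to the limit. The Neil1 call was lost without control clone #1 (−0.75) or #4 (−0.73) or without Neil1 clone #7 (−0.79) or #9 (−0.74), and held at −0.72 without clone #11, the library with the chromosome X genes at 0. The Neil2 call was lost without control clone #1 (−0.63) or #4 (−0.60), or without Neil2 clone #1 (−0.67), #11 (−0.71) or #14 (−0.51). In the Apex1 line it was lost without control clone #1 (−0.62) or #4 (−0.61) or without either duplicate (−0.52 and −0.75).

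Rxra, read at 25.6, 24.0 and 35.6 CPM in control mESCs and 46.4 and 48.1 CPM in the Apex1 duplicates, was the other gene called there (log2 0.70, SE 0.19, edgeR FDR = 0.059). That call was lost without control clone #1 (0.64) or #4 (0.59) or without either duplicate (0.73 and 0.67). Its values in Neil1 clones, 39.3, 54.7 and 50.8 CPM, also lay above the controls, with a log2 difference of 0.75 (SE 0.20) that was not called (edgeR FDR = 0.14). Without control clone #7, Rxra was called in Neil1 (0.95) and in Neil2 (0.55). It was also called in Neil1 with DESeq2 (0.76), with all 33 libraries in 1 fit (0.76) and without the filter (0.76). Rarg was not called in mESCs, at log2 −0.43, −0.54 and −0.28 for Neil1, Neil2 and Apex1. In Neil2 it was called with DESeq2 (−0.54) and with the replicate number as a block (−0.53). Rxrg read 1.14 to 1.45 CPM in control mESCs, 0.332 to 0.674 CPM in Neil1 and 0.483 to 0.766 CPM in Neil2, with no overlap. Its log2 differences of −1.24 (edgeR FDR = 0.18) and −1.09 (edgeR FDR = 0.17) were not called. In Apex1 Rxrg was not called either (0.41).

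In EBs without RA, the receptor genes called were 1 of 9 tested in Neil1 mutants (1 higher), 3 of 9 in Neil2 mutants (2 higher, 1 lower) and 3 of 10 in the Apex1 line (2 higher, 1 lower). The background was 23.5% of genes called in Neil1 (10.4% higher, 13.1% lower), 16.3% in Neil2 (8.65% higher, 7.69% lower) and 25.8% in Apex1 (11.9% higher, 13.9% lower). Nr2f1 did not pass the filter on low counts in the Neil1 and Neil2 fits, at 2 to 8 counts per mutant library.

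Rarg was the gene called in all 3 mutants, which share their control libraries. It read 96.0, 87.7 and 66.9 CPM in control EBs, 115, 113 and 165 CPM in Neil1, 119, 150 and 136 CPM in Neil2 and 143 and 130 CPM in Apex1 EBs, with every mutant library above every control. The log2 differences were 0.65 (SE 0.18, edgeR FDR = 0.026), 0.70 (SE 0.16, edgeR FDR = 0.024) and 0.71 (SE 0.14, edgeR FDR = 0.0046). Without Neil1 clone #11, the Neil1 difference was 0.45 and not called.

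Nr2f2 differed in the other direction. Its values of 1.15, 0.879 and 1.26 CPM in Neil2 and 0.811 and 0.762 CPM in Apex1 EBs were below the 2.02 to 3.08 CPM of controls, at log2 −1.16 (SE 0.30, edgeR FDR = 0.036) and −1.65 (SE 0.32, edgeR FDR = 0.0031). The Neil2 call was lost without control clone #4 (−0.99). In Neil1 EBs the values were 0.951, 1.38 and 2.65 CPM, which overlapped the controls, and Nr2f2 was not called (log2 −0.55, edgeR FDR = 0.28). Without Neil1 clone #11, the library at 2.65 CPM, it was called (−1.06, edgeR FDR = 0.03).

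The remaining calls in EBs were in the RXR genes. Rxra read 48.2, 43.1 and 50.4 CPM in Neil2 EBs against 27.1, 31.5 and 36.2 CPM in controls (log2 0.60, SE 0.14, edgeR FDR = 0.028), a call that was lost without control clone #1 (0.50) or #4 (0.59) or Neil2 clone #14 (0.56). Rxrg read 3.93 and 2.36 CPM in the Apex1 duplicates against 0.973 to 1.95 CPM in controls (log2 0.99, SE 0.33, edgeR FDR = 0.044), and this call was lost without control clone #4 (0.75) or the first duplicate (0.58). Nr5a2 in Neil1 (log2 0.48) and Apex1 (0.43) and Rara in Apex1 (0.49) passed the FDR limit but not the fold limit. Without control clone #1, Nr5a2 was called in both (0.58 and 0.52). Without control clone #4, Rara was called in Apex1 (0.59).

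Neil1, Neil2 and Apex1 EBs also differed from controls in cell type markers, whose part in these receptor differences was not tested. Of all genes, 10.4% were called higher and 13.1% lower in Neil1, 8.65% and 7.69% in Neil2, and 11.9% and 13.9% in Apex1. Of the mesenchyme markers, 8 of 9 tested were lower in Neil1, 8 of 9 in Neil2 and 5 of 10 in Apex1 EBs, and their summed level was 185 to 307 CPM in controls and 18.8 to 53.7 CPM over the mutants. Of the pluripotency genes with Pou5f1, 10, 8 and 7 of 12 were higher, and 1 was lower in Apex1. Their summed level was 2507 to 2520 CPM in control EBs and 2819 to 4031 CPM over the mutants. Visceral endoderm markers were lower for 9 of 10 in Apex1 EBs and were called for 0 of 10 in Neil1 and Neil2 EBs by edgeR.

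In EBs + RA, 6 of the 10 receptor genes were called in Neil1 mutants (3 higher, 3 lower), 7 in Neil2 mutants (4 higher, 3 lower) and 6 in the Apex1 line (3 higher, 3 lower). Of all genes tested, 41.1% were called in Neil1 (21.2% higher, 19.9% lower), 34.9% in Neil2 (18.3% higher, 16.6% lower) and 24.8% in Apex1 (13.9% higher, 10.9% lower). The median log2 difference over the 10 genes was −0.14, 0.04 and 0.14, and over all genes 0.00, 0.00 and −0.02.

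In the Neil1 and Neil2 mutants, the COUP-TF genes had the largest log2 differences of the 10 genes, while in Apex1 those of Nr5a2 and Rarg were larger. Nr2f1 read 195, 242 and 128 CPM in control EBs + RA, 6.63, 8.25 and 3.68 CPM in Neil1, 17.4, 7.24 and 12.1 CPM in Neil2 and 68.9 and 65.0 CPM in Apex1 EBs + RA. No mutant library overlapped the controls, and the Apex1 duplicates lay between the controls and the Neil mutants. The log2 differences from control were −4.91 (SE 0.36, edgeR FDR = 0.00013) in Neil1, −3.93 (SE 0.36, edgeR FDR = 0.00037) in Neil2 and −1.46 (SE 0.25, edgeR FDR = 0.006) in Apex1.

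Nr2f2 followed the same order, with 244, 226 and 160 CPM in controls, 33.7, 34.3 and 42.3 CPM in Neil1, 60.4, 29.1 and 40.3 CPM in Neil2 and 119 and 128 CPM in Apex1. Here too no mutant library overlapped the controls. Its log2 differences were −2.51 (SE 0.19, edgeR FDR = 0.00014), −2.26 (SE 0.28, edgeR FDR = 0.0011) and −0.74 (SE 0.19, edgeR FDR = 0.028), the last of which was lost without either Apex1 duplicate (−0.69 and −0.79). Within the pair, Nr2f1 made up 47.5 ± 4.2% of the summed COUP-TF level per kb in control EBs + RA (SD, n = 3), 14.9 ± 6.0% in Neil1 and 22.2 ± 1.7% in Neil2.

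Rarb was lower in each mutant, at 68.1, 74.4 and 63.8 CPM in Neil1, 64.4, 56.4 and 65.9 CPM in Neil2 and 72.5 and 76.0 CPM in Apex1 EBs + RA against 131, 129 and 97.2 CPM in controls. All mutant libraries stood below the lowest control. The log2 differences were −0.78 (SE 0.15, edgeR FDR = 0.0064), −0.92 (SE 0.14, edgeR FDR = 0.0028) and −0.65 (SE 0.16, edgeR FDR = 0.024), and the Apex1 call was lost without either duplicate (−0.62 and −0.68). Rarg, the receptor lowered by RA in controls, was higher instead, at 42.2, 48.3 and 33.9 CPM, 36.8, 52.1 and 45.3 CPM and 63.7 and 56.1 CPM against 16.5, 18.5 and 27 CPM. Again the groups did not overlap with the controls, and the differences were 1.01 (SE 0.23, edgeR FDR = 0.011), 1.13 (SE 0.21, edgeR FDR = 0.0057) and 1.57 (SE 0.21, edgeR FDR = 0.0025).

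Rara was not called in EBs + RA. It read 82.9, 108 and 94.0 CPM in controls, 62.2, 69.2 and 72.5 CPM in Neil1, 88.3, 62.3 and 75.5 CPM in Neil2 and 113 and 101 CPM in Apex1. The Neil1 libraries lay below all controls, but the log2 difference of −0.48 (SE 0.14, edgeR FDR = 0.032) was under the fold limit. It was called without control clone #1 (−0.57) or Neil1 clone #11 (−0.53). In the summed RAR level per kb, the Rarb share was 58.2 ± 6.0% in controls, 45.5 ± 0.91% in Neil1 and 40.8 ± 1.3% in Neil2, and the Rarg share 8.25 ± 2.9%, 21.9 ± 2.6% and 23.7 ± 5.3% (SD, n = 3). The Apex1 means over the duplicates were 37.3% for Rarb and 24.1% for Rarg.

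Of the RXR genes, Rxra and Rxrb were not called in any mutant with RA, with log2 differences of 0.10 to 0.39 and −0.36 to −0.09, except that Rxra was called in Neil2 without clone #14 (0.52). Rxrg read 0.628, 0.528 and 0.927 CPM in controls, 2.70, 0.957 and 1.15 CPM in Neil2 and 1.63 and 1.76 CPM in Apex1, from 14 to 72 counts per library. It was called higher in Neil2 (log2 1.21, SE 0.47, edgeR FDR = 0.082) and Apex1 (log2 1.31, SE 0.35, edgeR FDR = 0.035). Without Neil2 clone #1, the library at 2.70 CPM, the Neil2 difference was 0.60, and it was also not called without control clone #1 (1.14) or #4 (1.05). The Apex1 call was lost without control clone #1 (1.23) or either duplicate (1.36 and 1.25).

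Nr6a1 read 62.7, 53.4 and 82.9 CPM in control EBs + RA, 136, 117 and 116 CPM in Neil1, 88.2, 114 and 125 CPM in Neil2 and 68.7 and 79.0 CPM in Apex1. The Neil1 and Neil2 libraries lay above all controls and the Apex1 duplicates within their range. The log2 differences were 0.90 (SE 0.18, edgeR FDR = 0.007), 0.73 (SE 0.19, edgeR FDR = 0.019) and 0.18 (SE 0.19, edgeR FDR = 0.52). Nr5a2 was higher in all 3 mutants, at 8.08, 6.18 and 3.03 CPM, 5.36, 10.5 and 7.29 CPM and 9.93 and 8.43 CPM against 1.68, 2.19 and 2.68 CPM in controls, with no overlap. Its differences were 1.41 (SE 0.39, edgeR FDR = 0.024), 1.84 (SE 0.31, edgeR FDR = 0.0039) and 2.1 (SE 0.27, edgeR FDR = 0.0021). Pou5f1 was higher as well, by 1.85 (SE 0.35, edgeR FDR = 0.0057) in Neil1 and 2.42 (SE 0.39, edgeR FDR = 0.0032) in Neil2. A link of its level to these receptors was not tested.

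**Figure D3:**
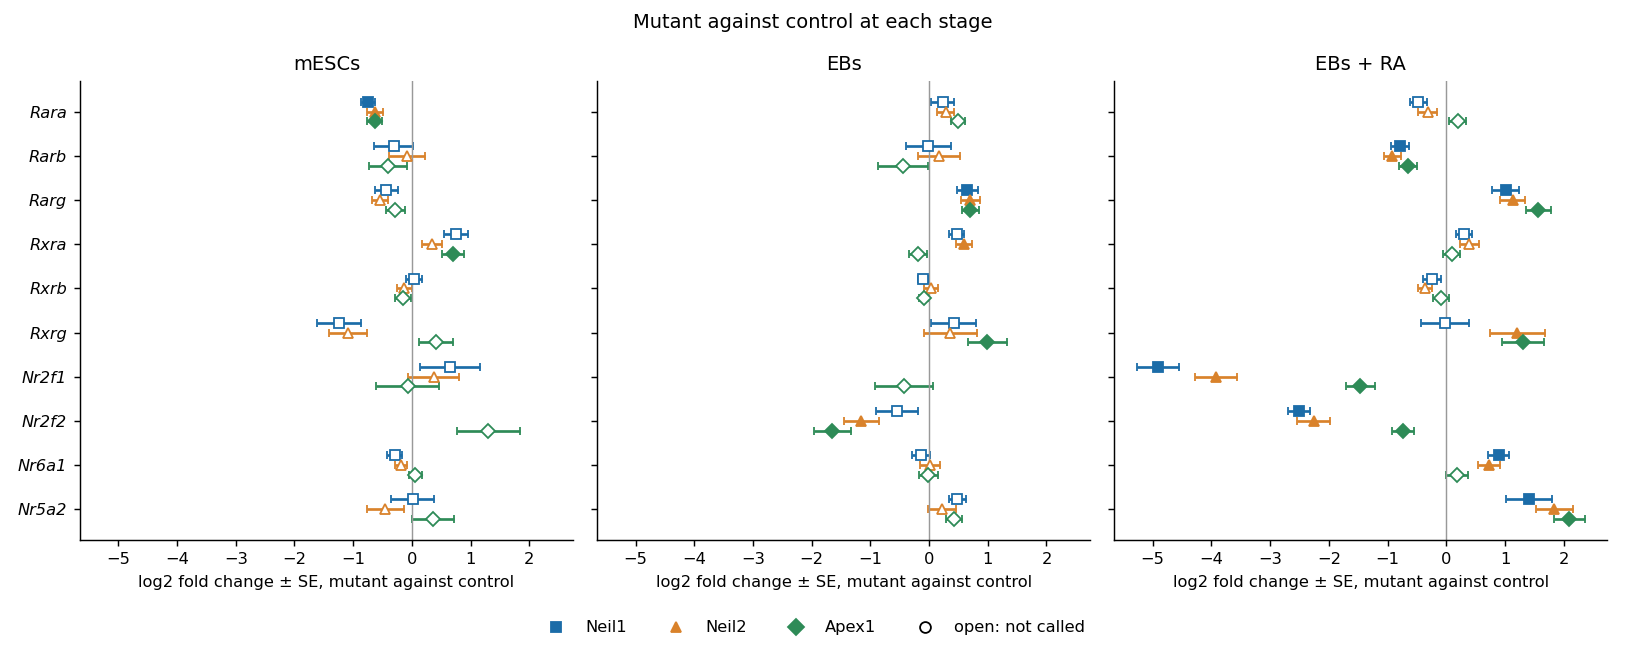
Log2 fold change of each receptor gene in each mutant against the controls of its stage, with SE as horizontal bars and filled markers for called genes. In EBs + RA, Nr2f1 and Nr2f2 lie to the left with the Neil1 and Neil2 markers beyond those of Apex1, and Rarg and Nr5a2 lie to the right in all 3 mutants.

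Since each comparison of a mutant with controls at 1 stage does not measure how far RA moved the gene, the RA response of each mutant was set against that of the controls in 1 fit, as an interaction term. Of the 10 genes, 4 were called in Neil1, 4 in Neil2 and 2 in Apex1, where 29.6%, 15% and 15.7% of all genes were called. EBs and EBs + RA of a clone came from a split culture, so the fit with a block for each clone is given wherever it changed a call. In the Apex1 line the block joins duplicates of clone #46 by their number, and that the number marks a shared culture is not stated. The block gave 6, 6 and 3 called genes.

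Nr2f1 rose 8.14 on the log2 scale in controls and 4.69 (SE 0.49) in Neil1 mutants, a difference of −3.45 (SE 0.86, edgeR FDR = 0.015). In Neil2 it rose 6.49 (SE 0.51), with a difference of −1.65 (SE 0.94, edgeR FDR = 0.31) that was called with the block (−1.63, edgeR FDR = 0.058). In Apex1 it rose 7.07 (SE 0.43), with a difference of −1.07 (SE 0.65, edgeR FDR = 0.34) that was called with the block on duplicate numbers (−1.08, edgeR FDR = 0.046). The gene was thus still induced by RA in every mutant, from EB levels of 2 to 15 counts. In EBs without RA, its Neil1 and Neil2 levels were below those of controls, as given above.

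The RA response of Nr2f2 was 6.40 in controls, 4.43 (SE 0.30) in Neil1, 5.27 (SE 0.31) in Neil2 and 7.28 (SE 0.28) in Apex1. The difference was −1.97 (SE 0.40, edgeR FDR = 0.0047) in Neil1 and −1.13 (SE 0.40, edgeR FDR = 0.098) in Neil2. The Neil2 call was lost in 9 of 12 fits without 1 library, with differences from −1.42 to −0.88, and held without EB clone #4 of the controls, EB + RA clone #7 of the controls or EB + RA clone #1 of Neil2. In Apex1 the difference was positive, 0.88 (SE 0.35, edgeR FDR = 0.13), and called with the block on duplicate numbers (0.88, edgeR FDR = 0.079). In EBs without RA, Nr2f2 was lower in Apex1 than in controls, as given above.

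Rarb rose 6.60 (SE 0.25) in Neil1, 6.24 (SE 0.22) in Neil2 and 7.11 (SE 0.27) in Apex1, against 7.34 in controls, from EB levels of 11 to 34 counts. The difference was called in Neil2 (−1.10, SE 0.31, edgeR FDR = 0.037), not in Neil1 (−0.74, SE 0.36, edgeR FDR = 0.15) unless with the block (−0.77, edgeR FDR = 0.087), and not in Apex1 (−0.23, SE 0.39, edgeR FDR = 0.76). The Neil2 call was lost without control EB + RA clone #1 (−0.998) or #4 (−1.01) or Neil2 EB clone #14 (−0.99). Rara rose 0.48 (SE 0.18) in Neil1 and 0.55 (SE 0.16) in Neil2 against 1.17 in controls, differences of −0.69 (SE 0.25, edgeR FDR = 0.066) and −0.61 (SE 0.22, edgeR FDR = 0.098). Of 12 fits without 1 library, the Neil1 call was lost in 5 (−0.82 to −0.43), those without EB clone #1 or #7 or EB + RA clone #4 of the controls, or without EB clone #11 or EB + RA clone #7 of Neil1. The Neil2 call was kept in 3 (−0.72 to −0.46 over all 12), those without EB clone #4 of the controls or without EB or EB + RA clone #1 of Neil2.

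Rarg fell by 1.65 (SE 0.22) in Neil1 and by 1.63 (SE 0.20) in Neil2, and its responses there were not called different from the controls (0.38, SE 0.30, edgeR FDR = 0.37, and 0.41, SE 0.28, edgeR FDR = 0.4). Without control EB + RA clone #7, the Neil2 difference was called (0.69). In Apex1 the gene fell by 1.19 (SE 0.22), a difference of 0.85 (SE 0.28, edgeR FDR = 0.084) that was not called with the block (0.86, edgeR FDR = 0.13) or in 8 of 10 fits without 1 library (0.71 to 1.09), and held without the EB or EB + RA library of control clone #7. Rxra, Rxrb and Rxrg gave no called difference in any mutant, with differences from −0.43 to 0.83, except that Rxrb was called in Neil2 without EB clone #1 (−0.50).

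Nr6a1 rose with RA by 0.51 (SE 0.17, edgeR FDR = 0.023) in Neil1, where it changed by −0.55 in controls, and the difference was 1.05 (SE 0.25, edgeR FDR = 0.0095). In Neil2 the response was 0.15 (SE 0.19) and the difference 0.70 (SE 0.27, edgeR FDR = 0.13), called with the block (0.69, edgeR FDR = 0.033). Nr5a2 fell by 2.56 (SE 0.29) in Neil1, by 1.90 (SE 0.28) in Neil2 and by 1.86 (SE 0.21) in Apex1, against a change of −3.51 in controls. The difference was called in Neil2 (1.60, SE 0.40, edgeR FDR = 0.023) and Apex1 (1.65, SE 0.27, edgeR FDR = 0.0025), and in Neil1 with the block (0.87, edgeR FDR = 0.077) but not without it (0.95, SE 0.40, edgeR FDR = 0.1).

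**Figure D4:**
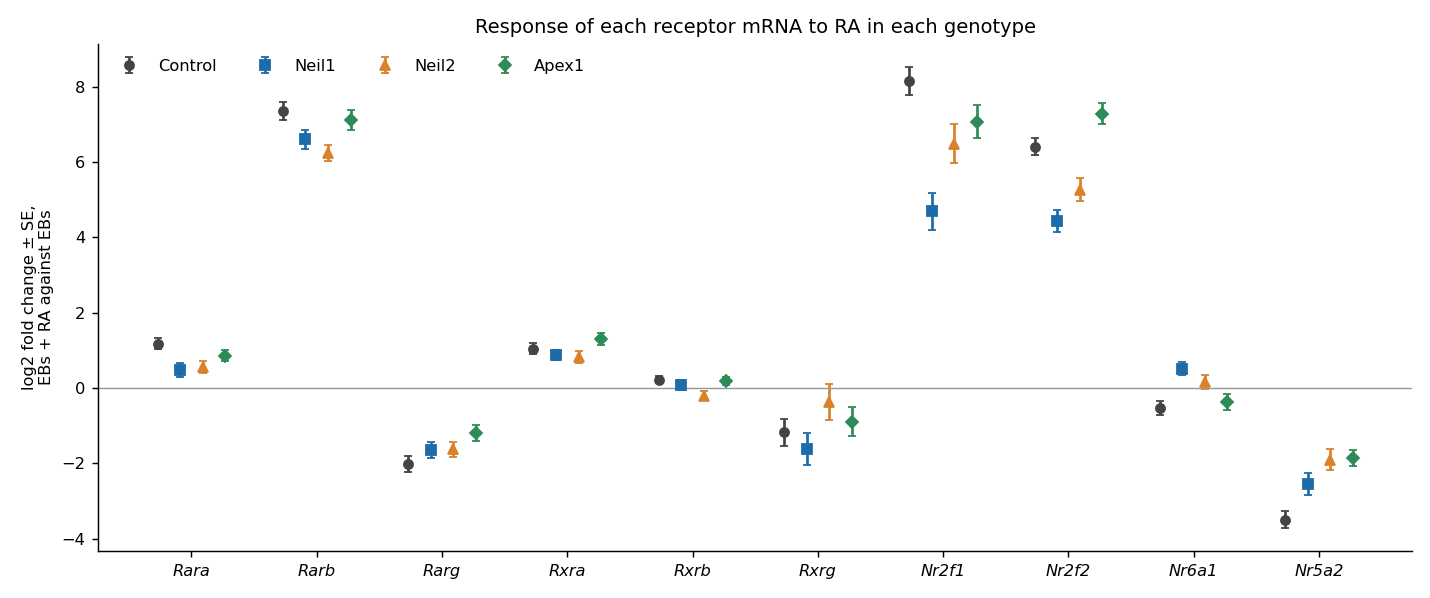
Log2 fold change of each receptor gene in EBs + RA against EBs, with SE, for each genotype. The Nr2f1 and Nr2f2 points of Neil1 and Neil2 lie below those of controls, the Nr2f2 point of Apex1 lies above (7.28 against 6.41), and Nr6a1 is positive in Neil1 and negative in controls.

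The Apex1 line was also set against the Neil mutants in EBs + RA, a comparison chosen after the values above were seen. Against Neil1, 6 of the 10 genes were called (31.3% of all genes), and against Neil2, 3 were (20.1%). Nr2f1 was 10.6-fold higher in Apex1 than in Neil1 (log2 3.41, SE 0.30, edgeR FDR = 0.00099) and 5.34-fold higher than in Neil2 (log2 2.42, SE 0.33, edgeR FDR = 0.0077). Nr2f2 was 3.30-fold higher than in Neil1 (log2 1.72, SE 0.17, edgeR FDR = 0.0012) and 2.78-fold higher than in Neil2 (log2 1.48, SE 0.28, edgeR FDR = 0.019). The Neil2 call of Nr2f2 was lost without either Apex1 duplicate (1.54 and 1.44).

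Nr6a1 was lower in Apex1, by −0.76 (SE 0.16, edgeR FDR = 0.017) and −0.59 (SE 0.17, edgeR FDR = 0.055), and both calls were lost without either duplicate, the second also without Neil2 clone #14 (−0.49). Rara, Rarg and Rxrg were called higher than in Neil1 (log2 0.63, 0.51 and 1.28). Each of these calls was lost without either duplicate, those of Rarg (0.51) and Rxrg (1.14) also without Neil1 clone #7, and that of Rarg without Neil1 clone #11 (0.38). With the duplicates summed to 1 library, the called genes were 2 against Neil1, Nr2f1 and Nr2f2, and 0 against Neil2. Rarb differed by 0.09 (SE 0.15) and 0.22 (SE 0.13), which was not called.

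The counts of the lists below stand beside the shares of all genes called and were not tested against them. With RA in controls, these shares were 23.3% higher and 20.7% lower. In EBs + RA, they were 21.2% and 19.9% in Neil1, 18.3% and 16.6% in Neil2, and 13.9% and 10.9% in Apex1. Among 16 genes of retinoid metabolism and binding, 13 were higher and 1 lower with RA in controls, with a median log2 change of 2.81 against 0.01 over all genes. Cyp26b1, which degrades RA, rose by 7.85 (SE 0.22, edgeR FDR = 2.4e-07), and Aldh1a1, which makes it, rose by 5.64 (SE 0.29, edgeR FDR = 2.5e-06). In EBs without RA, 1 of 15 tested was higher and 8 lower in Neil1, 1 and 5 in Neil2, and 0 and 7 in Apex1. The shares of all genes there were 10.4% and 13.1%, 8.65% and 7.69%, and 11.9% and 13.9%. In EBs + RA, 4 of 16 were higher and 4 lower in Neil1, 3 and 4 in Neil2, and 1 and 7 in Apex1. Crabp1, which binds RA in the cytoplasm, was lower by −5.54 (SE 0.29, edgeR FDR = 5.5e-05) in Neil1 and −4.27 (SE 0.44, edgeR FDR = 0.00056) in Neil2. Aldh1a2, the main embryonic RA-synthesizing enzyme, was lower by −4.36 (SE 0.25, edgeR FDR = 8e-05) and −3.54 (SE 0.41, edgeR FDR = 0.00082).

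Of 15 coregulators of these receptors, 2 were higher and 3 lower with RA in controls, beside 23.3% and 20.7% of all genes. Nrip1, a ligand-dependent corepressor, rose by 2.39 (SE 0.12, edgeR FDR = 2.5e-06), and the acetyltransferase gene Kat2b fell by 1.28 (SE 0.12, edgeR FDR = 4.5e-05). In EBs + RA, 1 was higher and 5 lower in Neil1, 1 and 4 in Neil2, and 1 and 0 in Apex1. Zfp423, a cofactor of RAR and RXR, was lower in Neil1 (−1.65, SE 0.26, edgeR FDR = 0.0024) and Neil2 (−1.22, SE 0.15, edgeR FDR = 0.001). Kat2b was higher, by 0.99 (SE 0.21, edgeR FDR = 0.0091) and 1.18 (SE 0.26, edgeR FDR = 0.011).

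Of the other nuclear receptors that pair with RXR, 5 of 9 tested were higher and 1 lower with RA in controls, beside 23.3% and 20.7% of all genes. The largest changes were in Pparg, the adipogenic receptor (3.14, SE 0.34, edgeR FDR = 0.00012), and Nr4a1, an immediate early gene (−2.07, SE 0.14, edgeR FDR = 8.2e-06). In EBs + RA, 3 of 11 were higher and 1 lower in Neil1, 3 and 2 of 10 in Neil2, and 1 and 1 of 10 in Apex1. Thra, a thyroid hormone receptor gene, was lower by −1.71 (SE 0.18, edgeR FDR = 0.00044) in Neil1 and −1.43 (SE 0.17, edgeR FDR = 0.00097) in Neil2. Ppara was higher in Neil1 (1.51, SE 0.59, edgeR FDR = 0.077), and Nr4a2 was lower in Neil2 (−1.20, SE 0.41, edgeR FDR = 0.056).

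Of the other orphan receptors, 4 of 12 tested were higher and 3 lower with RA in controls, beside 23.3% and 20.7% of all genes. Esrrb, part of the pluripotency network, fell by 4.30 (SE 0.23, edgeR FDR = 5.1e-06), and Rorb rose by 3.97 (SE 0.40, edgeR FDR = 7.2e-05). Against controls in EBs + RA, 5 of 13 were higher and 2 lower in Neil1, 2 and 2 of 12 in Neil2, and 2 and 3 of 13 in Apex1. The largest called differences were in Esrrg (−3.44, SE 0.34, edgeR FDR = 0.00038) and Rorb (−3.12, SE 0.37, edgeR FDR = 0.00075) in Neil1, and in Rorb (−3.42, SE 0.38, edgeR FDR = 0.00073) and Esrrg (−2.46, SE 0.40, edgeR FDR = 0.003) in Neil2.

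Markers of several cell types moved with the receptors in EBs + RA, and their part in the receptor differences was not tested. Of all genes, 21.2% were called higher and 19.9% lower in Neil1, 18.3% and 16.6% in Neil2, and 13.9% and 10.9% in Apex1. Neural markers were lower in all 9 genes tested in Neil1, all 9 in Neil2 and 8 of 9 in Apex1, with a summed level of 329 to 551 CPM in controls, 52.9 to 68.2 CPM in Neil1, 57.1 to 71.3 CPM in Neil2 and 94.4 to 100.2 CPM in Apex1. With RA in controls, 8 of the 9 neural markers had risen and 1 had fallen, Neurog2 by 9.58 and Pax6 by 6.84 on the log2 scale. Dcx, a gene of young neurons, was lower by −6.21 (SE 0.34, edgeR FDR = 5.5e-05) in Neil1 and −5.32 (SE 0.44, edgeR FDR = 0.00031) in Neil2, and Neurog2 by −5.37 and −6.63. Mesenchyme markers were lower for 8, 9 and 4 of 10 genes, with sums of 321 to 435 CPM in controls, 86.7 to 190.7 CPM in Neil1, 60.5 to 127.9 CPM in Neil2 and 241 to 314 CPM in Apex1. With RA in controls, 7 of 10 had risen, led by Meox1 (5.11) and Tcf21 (4.31), and 1 had fallen. The collagen gene Col3a1 was lower by −5.37 (SE 0.26, edgeR FDR = 4.5e-05) in Neil1 and −4.77 (SE 0.38, edgeR FDR = 0.00026) in Neil2, Col1a1 by −5.39 in Neil1 and Prrx1 by −4.80 in Neil2.

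Pluripotency genes with Pou5f1 were higher for 10, 10 and 9 of 12 genes and lower for 1 in Neil1, with sums of 347 to 406 CPM in controls, 543 to 766 CPM in Neil1, 532 to 1035 CPM in Neil2 and 995 to 1170 CPM in Apex1. Klf2 was higher by 1.99 in Neil1 and 2.59 in Neil2. With RA in controls all 12 were called lower, and Utf1 fell by 4.77. Visceral endoderm markers were higher for 6, 1 and 1 of 10, with sums of 189 to 674 CPM in controls, 709 to 1460 CPM in Neil1, 229 to 791 CPM in Neil2 and 265 to 271 CPM in Apex1.

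Amn, a visceral endoderm gene, was higher by 2.69 in Neil1 and 1.95 in Neil2, and Cubn by 2.12 in Neil1. With RA in controls, 1 of the 10 visceral endoderm markers was called higher and 4 lower. Amn fell by 3.74 and Apob fell by 2.79. Endothelium markers were divided, 2 higher in each mutant and 4, 4 and 2 of 8 lower, with sums of 42.8 to 51.4 CPM in controls, 34.2 to 169.3 CPM in Neil1, 29.9 to 55.6 CPM in Neil2 and 56.2 to 69.1 CPM in Apex1. Emcn differed by −6.98 and −4.77 and Cldn5 by −3.97 and −3.07 in Neil1 and Neil2. In controls 4 of 8 were called higher with RA and 3 lower, where Emcn rose by 5.52 and Pecam1 fell by 2.91. Cardiac muscle markers were higher for 3, 6 and 4 of 7 and lower for 1 of 7 in each, with sums of 10.5 to 17.6 CPM in controls, 14.8 to 19.3 CPM in Neil1, 18 to 24.7 CPM in Neil2 and 20.4 to 25.7 CPM in Apex1. Actc1 differed by −4.01 and −2.41 and Ttn by 2.11 and 2.12 in Neil1 and Neil2. With RA in controls 4 of 7 were called lower and 0 higher, where Ttn fell by 2.82 and Myh7 fell by 2.27. No marker of these lists was at 0 in every library of an EB + RA group.

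The genes whose levels followed each receptor most closely over the 33 libraries were taken as a description, since libraries of a clone or stage are not independent and all share the stage difference. For Rarb they were Cyp26b1 (Pearson r = 0.98), Meis1 (0.97) and Gm15050 (0.97). Nr2f1 was closest to Foxd2 (0.98), Spsb4 (0.97) and Hoxc5 (0.97), and Nr2f2 to Tshz1, Hoxb4 and Tsc22d1 (all 0.98). Nr5a2 was closest to Ttc39b and Gm13152 (both 0.99) and 2410141K09Rik (0.98), and Rarg to Accsl, Itgb7 (both 0.98) and Hsd17b14 (0.97). The values were lower for genes that moved less: Rara with Crispld2 (0.88), Fsd1 and Cygb (both 0.87), Rxra with Dynll2 (0.91), Prkch and Adh1 (both 0.89), Rxrb with Maz (0.87), Hn1 (0.86) and Prr12 (0.84), Rxrg with Mtfp1 (0.86), Wnt8a (0.79) and Eno4 (0.77), and Nr6a1 with Mpp7 (0.81), Lpin3 (0.79) and Rnf6 (0.77).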

How the data were processed

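RNA-seq libraries were prepared by the authors from total RNA (33 libraries, the 2 of Apex1 at each stage being technical duplicates), aligned to the mouse genome NCBIM37 with TopHat and summarised per gene with HTSeq. The submitters' processing notes name TopHat2 2.0.9, Bowtie2 2.1.0 and HTSeq 0.5.4. The deposited values are raw counts per gene, without normalization. HTSeq set aside 11.44% to 19.85% of alignments as not unique.

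Counts were tested with edgeR 4.0.16 (limma 3.58.1, R 4.3.3): filterByExpr, TMM scaling, robust quasi-likelihood fit of the groups compared, Benjamini-Hochberg adjustment over all genes tested, and the study's limits of FDR below 0.1 and absolute log2 fold change above 0.5. SE is the absolute log2 fold change over the square root of F. Likeness used log2 CPM with a prior count of 2. Tables used Python 3.11.15, numpy 2.4.6 and pandas 2.3.3, and figures matplotlib 3.10.9.

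The members and lists were chosen with earlier results of these data known. Named genes were the members, the 3 genes most alike to each by Pearson r, and from each list up to 2 called genes with the largest change with RA in controls and in Neil1 and Neil2 EBs + RA. Of 129 listed genes, 127 were matched and Sox1 and Tnnc1 were not analysed here. Promoter sequences are from RefSeq (GRCm38.p6).

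Alternatives were DESeq2 1.42.0, RLE size factors, no filter, an FDR below 0.05, no fold limit, all 33 libraries in 1 fit, summed Apex1 duplicates, each library left out, and the replicate number as a block. EBs and EBs + RA of a clone came from a culture split on day 4, per the labels, and their deviations from group means correlated in all 9 control, Neil1 and Neil2 pairs (r = 0.16 to 0.35). The Apex1 duplicates gave a single value (r = 0.20), since deviations of 2 libraries mirror each other. EBs and mESCs of a control clone share only the clone (r = −0.09 to 0.09, 3 pairs). Same-group libraries differed beyond counting noise in all 30 pairs (chi-square per degree of freedom 5.58 to 127), so none was a copy.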

Additional observations from a re-analysis of the deposited data

Results flagged for a closer look

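For 10 values, the RA response of a mutant differed from that of the controls in the interaction test. In Neil1 mutants the differences on the log2 scale were −3.45 for Nr2f1, −1.97 for Nr2f2, −0.69 for Rara and 1.05 for Nr6a1. In Neil2 mutants they were −1.13 for Nr2f2, −1.10 for Rarb, −0.61 for Rara and 1.60 for Nr5a2. In the Apex1 line they were 0.85 for Rarg and 1.65 for Nr5a2, from duplicates of 1 clone. With the block, Rarg in Apex1 was not called and 6 more values were: Rarb and Nr5a2 in Neil1, Nr2f1 and Nr6a1 in Neil2, and Nr2f1 and Nr2f2 in Apex1. The calls of Nr2f2 and Rara in Neil2 were each lost in 9 of 12 fits without 1 library. The causes were not tested.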

How the results depend on the processing

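Of 864 values of called receptor genes under alternatives, 735 stayed called in the same direction, 129 were no longer called and 0 reversed. Of 1334 uncalled values, 45 changed sign and 58 were called. The number of receptor genes called moved by over 1.5 times as follows, and the cause was not tested. In mESCs, Neil1 (1) gave 2 with DESeq2, with all libraries in 1 fit or without the filter, and 0 at an FDR below 0.05. Neil2 (1) gave 2 with DESeq2 and 0 at that FDR, and Apex1 (2) gave 1 at that FDR. In EBs, Neil1 (1) gave 2 with all libraries in 1 fit or without the filter and 3 without the fold limit, and Apex1 (3) gave 5 without the fold limit. For the RA response, Neil2 (4) gave 2 at an FDR below 0.05 or without the filter, and Apex1 (2) gave 1 at that FDR. With the Apex1 duplicates summed, the counts were 0 in mESCs, 3 in EBs + RA (of 6), 1 for the RA response, 2 against Neil1 (of 6) and 0 against Neil2 (of 3).

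Leaving out 1 library gave 0 to 2, 0 to 2 and 0 to 4 genes in mESCs for Neil1, Neil2 and Apex1, 1 to 4, 1 to 4 and 2 to 4 in EBs, and 6 to 7, 6 to 8 and 3 to 6 in EBs + RA. For the RA response it gave 3 to 6, 1 to 5 and 1 to 4, and for Apex1 2 to 6 against Neil1 and 1 to 4 against Neil2. Where 1 Apex1 library was left, it was assumed to vary like the other groups.

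Mutant and control clones share only a number (r = −0.25 to 0.32 over 24 pairs). With that number as a replicate block, mESCs gave 0 for Neil1, 2 for Neil2 and 4 for Apex1, EBs 1, 3 and 3, and EBs + RA 6, 6 and 6. The block on clones of the same origin gave 9 for RA in controls and 3 for EBs against mESCs. Scaling by library totals moved 24 of 120 group levels by more than 1 SD and the longest transcript 71. Counts under 30 per library limit Nr2f1 in mESCs and EBs. Low counts also limit Nr2f2 in mESCs (4 to 24) and Rarb in EBs (11 to 34). The same holds for Rxrg, with 9 to 16 counts in Neil1 mESCs and 14 to 28 in control EBs + RA.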
